A study of Mus musculus with 6 samples.

Results

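Myostatin, the activins and the TGF-beta ligands are secreted factors that limit muscle growth and promote matrix deposition. Each binds a type II receptor (Acvr2a and Acvr2b for myostatin and activin, Tgfbr2 for TGF-beta), which activates a type I receptor that in turn phosphorylates Smad2 and Smad3. Follistatin captures myostatin and activin outside the cell, and Smad7 blocks the receptors from inside it. In adult skeletal muscle, myofibers are the main source of myostatin, while mononuclear cells of the tissue are known sources of TGF-beta and of several of its matrix partners.

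The 10 genes described here, Mstn, Tgfb1, Acvr2a, Acvr2b, Tgfbr2, Fst, Fstl1, Smad2, Smad3 and Smad7, were taken by name from the 20632 rows of the deposited expression table as ligands, receptors, inhibitors and SMADs of this pathway. All 10 were in the table, and all 10 were among the 12116 genes with enough counts to be tested. A further 84 genes of the pathway, listed by role, were read from the same table.

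RNA was sequenced from whole hind limb muscle (TA, EDL, GA, SOL and Q) of unexercised male C57BL/6J mice aged 3 months. Baf155 (gene Smarcc1) is a core subunit of the SWI/SNF chromatin remodeling complex. The 3 Baf155ΔMF mice carried MCK-Cre and floxed Baf155 (MCK-Cre; Baf155 f/f, labelled Baf155 -/-). The 3 Baf155WT mice were the controls and carried floxed Baf155 alone (Baf155 f/f, labelled wild type). The muscle creatine kinase promoter drives Cre in myofibers and in cardiac muscle, so other cells of the muscle were not targeted. There was 1 library per mouse. Sample titles also carried the prefixes MS13, MS14 and MS15, whose meaning is not given in the sources used here. Baf155WT mouse 1 and Baf155ΔMF mice 1 and 2 were MS13, Baf155WT mice 2 and 3 were MS15, and Baf155ΔMF mouse 3 was MS14, so only the MS13 mice hold both genotypes. Values below are listed in this mouse order.

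Total counts were between 8426022 and 12469335 per mouse. Levels are given as CPM (read counts scaled to a common library total) after TMM scaling, and the floor used here, 3 counts in a library, lay at 0.23 to 0.351 CPM. The floor covers counting error only. Smarcc1, the targeted gene, was at 23.4, 19.5 and 17.0 CPM in Baf155WT mice and at 7.05, 6.54 and 7.72 CPM in Baf155ΔMF mice. This was a log2 difference of -1.49 (SE 0.15, adjusted p = 0.00907 by edgeR). The source of the remaining transcript was not tested. Summed fast myofiber markers (7 of 7 detected in every mouse) were at 96600 to 110000 CPM across the 6 mice, as the labelled tissue would have. The 7 macrophage and leukocyte markers summed to 107, 324 and 263 CPM in Baf155WT mice and to 104, 103 and 168 CPM in Baf155ΔMF mice, and none was at 0 in any mouse. The 2 MS15 mice therefore held the highest leukocyte marker levels, and the MS13 mice of both genotypes lay together.

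The sequences before the transcription starts of 2 members are shown because Mstn is the most abundant of the 10 per length and Tgfbr2 is the type II receptor with the lower mean in Baf155ΔMF mice. Each is the 250 bases upstream of the RefSeq start, read 5′ to 3′ on the strand of the gene (GRCm38.p6). Capitals mark every E-box (CANNTG, the word bound by MyoD-family and other bHLH factors) and every SMAD-box word (CAGAC, or GTCTG when read on the opposite strand).

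Mstn, chr1:53061390-53061639, plus strand: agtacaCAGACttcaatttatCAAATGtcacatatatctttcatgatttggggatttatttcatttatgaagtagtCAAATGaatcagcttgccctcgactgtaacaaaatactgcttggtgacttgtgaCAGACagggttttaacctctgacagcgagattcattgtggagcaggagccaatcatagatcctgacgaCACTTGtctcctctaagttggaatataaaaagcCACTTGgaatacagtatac

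Tgfbr2, chr9:116175364-116175613, minus strand: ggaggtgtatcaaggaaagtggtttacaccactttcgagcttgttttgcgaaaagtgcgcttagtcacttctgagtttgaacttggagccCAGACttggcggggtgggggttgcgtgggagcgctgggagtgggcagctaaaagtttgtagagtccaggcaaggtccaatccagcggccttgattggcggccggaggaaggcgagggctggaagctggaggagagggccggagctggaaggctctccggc

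The Mstn window held 4 E-boxes, beginning at -229, -174, -52 and -19 from the start, and 2 CAGAC words at -244 and -120. The Tgfbr2 window held no E-box and 1 CAGAC word at -160. Of the 7 members whose windows were read here, 4 (Mstn, Acvr2a, Acvr2b and Tgfbr2) held the SMAD-box word on either strand and 1 (Mstn) held an E-box. The windows of Fst, Smad2 and Smad7 are not reported here. Over 32851 mouse promoters of this length, 42.2% held the SMAD-box word and 66.2% held an E-box. Neither the STAT word TTCNNNGAA (7.02% of all promoters) nor the hypoxia word ACGTG (16.6%) occurred in the 7 windows on either strand. The words were chosen after the expression values were seen, no overlapping matches occurred, and a match is a description of the letters only.

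In these muscles no member of the pathway differed between genotypes at an adjusted p under 0.05. By edgeR 0 of 10 members were called, where 0.0248% of all genes tested were called (3 of 12116), and DESeq2 and limma-voom also called 0 of 10. At an unadjusted p under 0.05 there were 3 members, Acvr2b with a higher mean and Tgfbr2 and Fst with lower means in Baf155ΔMF mice, beside 7.95% of all genes tested (3.35% higher and 4.6% lower). In 2 members, Mstn and Smad2, every Baf155ΔMF mouse was above every Baf155WT mouse, beside 10.8% of all genes whose genotypes did not overlap and 5.2% that did so in this direction. The median log2 difference was 0.05 over the members and 0.00 over all genes tested.

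These counts depended on single mice. Without Baf155WT mouse 1 the 3 members named at the unadjusted limit passed the adjusted limit as well, at log2 differences of 0.61 for Acvr2b, -0.50 for Tgfbr2 and -0.93 for Fst (adjusted p = 0.0246, 0.00937 and 0.00427 by edgeR). In that fit 7.77% of all genes were called (955 of 12288), and both remaining Baf155WT mice were MS15, so genotype and title prefix cannot be told apart in it. Members with an unadjusted p under 0.05 numbered 6 without Baf155WT mouse 1 (beside 23.8% of all genes), 0 without Baf155WT mouse 2 (3.69%) and 1 without Baf155WT mouse 3 (3.69%). Such members numbered 1 without Baf155ΔMF mouse 1 (3.85% of all genes), 1 without Baf155ΔMF mouse 2 (4.6%) and 3 without Baf155ΔMF mouse 3 (10.2%). Members whose genotypes did not overlap numbered 5 without Baf155WT mouse 1 (39.2% of all genes) and 5 without Baf155ΔMF mouse 3 (28.8% of all genes).

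**Figure D1:**
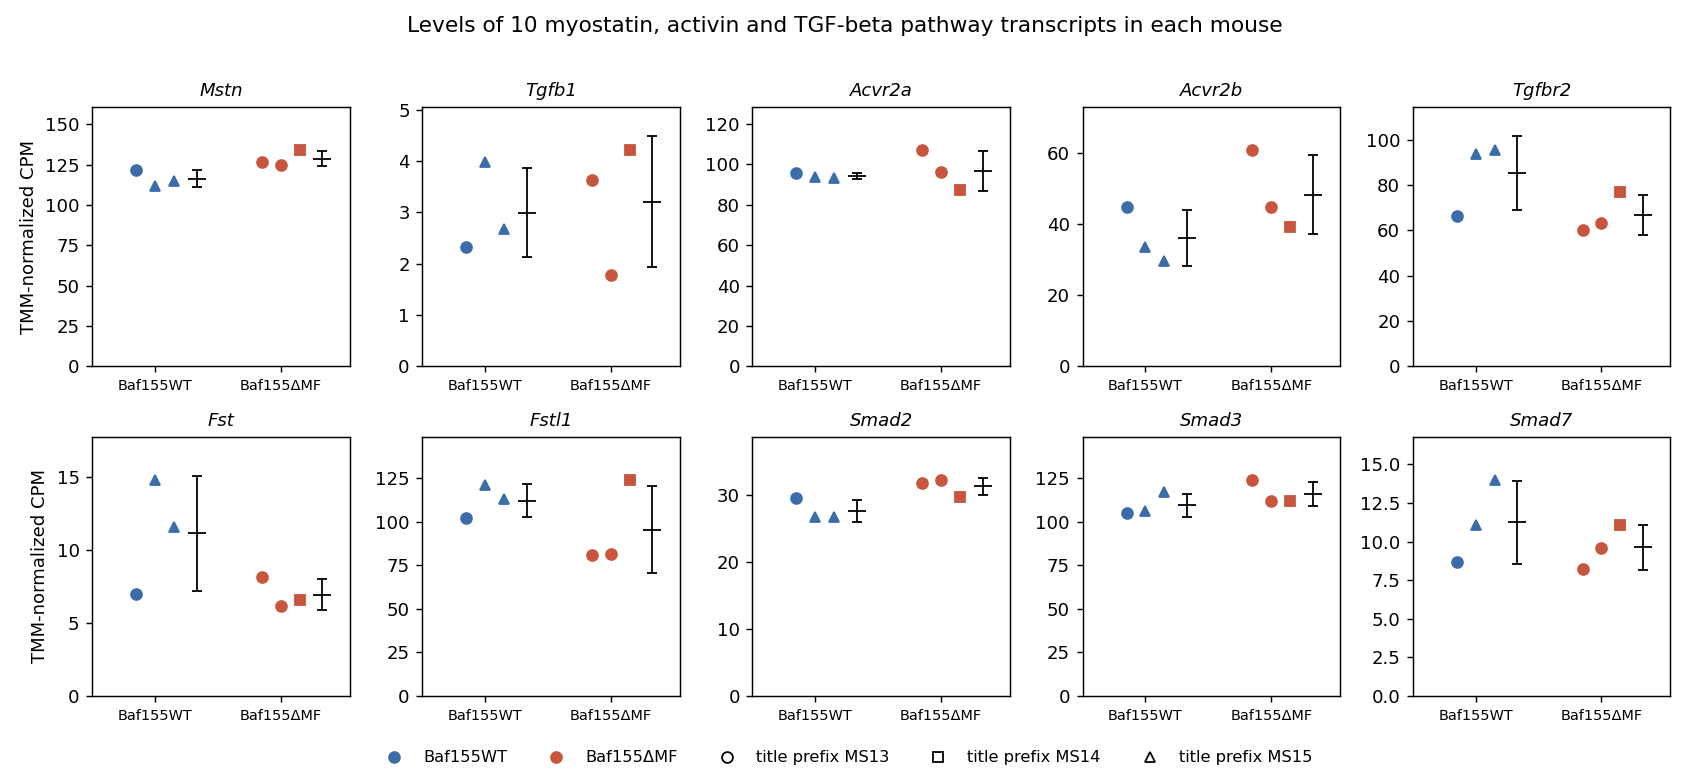
TMM-normalized CPM of each of the 10 members (y axes from 0, in CPM) in 3 Baf155WT (blue) and 3 Baf155ΔMF (red) mice. Each point is 1 mouse, its shape gives the title prefix, and the black mark with bar is the mean ± SD; the genotypes are apart in Mstn and Smad2, and the MS13 Baf155WT mouse lies near the Baf155ΔMF mice in Tgfbr2 and Fst.

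Mstn (chr1:53061640-53068079, plus strand, GRCm38), which encodes myostatin, was at 122, 112 and 115 CPM in Baf155WT mice and at 127, 125 and 134 CPM in Baf155ΔMF mice. All 3 Baf155ΔMF mice were above the highest Baf155WT mouse, although by a small margin. The means were 116 ± 5.07 and 129 ± 4.98 CPM (SD, n = 3 each), a 1.11-fold difference (log2 0.15, 95% interval -0.04 to 0.34, adjusted p = 0.643 by edgeR). Among the MS13 mice alone the log2 difference was 0.05, and when library size alone was used for scaling the genotypes of Mstn overlapped.

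Tgfb1 (chr7:25687002-25705077, plus strand), which encodes the TGF-beta 1 ligand, was the scarcest member at 17 to 52 counts per mouse. Its level was 2.33, 3.98 and 2.68 CPM in Baf155WT mice and 3.63, 1.77 and 4.21 CPM in Baf155ΔMF mice. The lowest and the highest mouse were both Baf155ΔMF. The 95% interval of the log2 difference ran from -0.64 to 0.78 (estimate 0.07, adjusted p = 0.959 by edgeR). It holds both lower and higher Tgfb1 levels, so these mice do not settle the direction of any change.

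The type II receptors for myostatin and activin differed in how even they were across mice. Acvr2a (chr2:48814109-48903269, plus strand), the more abundant of the pair, was at 95.8, 93.6 and 93.2 CPM in Baf155WT mice and at 107, 96.0 and 87.1 CPM in Baf155ΔMF mice. The 3 Baf155WT mice lay inside the range of the Baf155ΔMF mice, with a log2 difference of 0.04 (SE 0.09, adjusted p = 0.916 by edgeR) that took the opposite sign, at -0.03, with library size alone. The Acvr2a estimates were not whole numbers in any of the 6 mice, unlike those of the other 9 members. In GENCODE M21 the gene overlaps Orc4 on the opposite strand. Acvr2b and Fst, with whole estimates, overlap Gm47320 and Gm47040 on the opposite strand. Whether the annotation behind the estimates held these genes is not given. The source of the fractions was not tested.

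Acvr2b (chr9:119402118-119434995, plus strand), the receptor with the higher affinity for myostatin, was at 45, 33.7 and 29.7 CPM in Baf155WT mice and at 60.9, 44.9 and 39.3 CPM in Baf155ΔMF mice. Within both genotypes mouse 1, an MS13 mouse, was the highest, and Baf155WT mouse 1 reached the level of Baf155ΔMF mouse 2. The means were 36.1 ± 7.92 and 48.3 ± 11.2 CPM (SD, n = 3 each), with a log2 difference of 0.42 (95% interval 0.03 to 0.82, adjusted p = 0.611 by edgeR). Within the MS13 mice the difference was 0.23, and between Baf155WT mice the MS15 pair differed from the MS13 mouse by -0.50.

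Tgfbr2 (chr9:116084293-116175360, minus strand), the type II receptor of TGF-beta, was at 66.5, 93.9 and 95.4 CPM in Baf155WT mice and at 60.0, 63.4 and 76.8 CPM in Baf155ΔMF mice. The 2 MS15 Baf155WT mice were the highest of the 6, and the MS13 Baf155WT mouse lay between the Baf155ΔMF mice. The log2 difference was -0.36 (95% interval -0.67 to -0.04, adjusted p = 0.601 by edgeR) over all mice and -0.11 within the MS13 mice. Between the Baf155WT mice themselves, MS15 was above MS13 by 0.51 log2 units. The leukocyte marker sum given above was also lowest in the MS13 mouse among Baf155WT mice, its part in the Tgfbr2 difference was not tested, and in such bulk RNA fewer cells of a type and less RNA per cell cannot be told apart.

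Fst (chr13:114452290-114458951, minus strand), which encodes follistatin, had the largest log2 difference of the 10 members in size. It was at 7.0, 14.8 and 11.6 CPM in Baf155WT mice and at 8.11, 6.13 and 6.55 CPM in Baf155ΔMF mice. Only the 2 MS15 Baf155WT mice stood above the others, and the MS13 Baf155WT mouse was below Baf155ΔMF mouse 1. The log2 difference was -0.69 (SE 0.24, 95% interval -1.23 to -0.16, adjusted p = 0.601 by edgeR).

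Within the MS13 mice the Fst difference was 0.03 on the log2 scale. The fit with the title prefix as a covariate gave 0.02. It is no separate check, because genotype is then compared within the MS13 mice alone. The 2 MS15 Baf155WT mice exceeded the MS13 Baf155WT mouse by 0.91. The fibro-adipogenic markers summed to 458, 617 and 582 CPM in Baf155WT mice and to 422, 416 and 530 CPM in Baf155ΔMF mice. Of these 7 markers 3 were lower at an unadjusted p under 0.05, beside 4.6% of all genes, and 1, Col15a1, had a positive log2 difference (0.04). The adipocyte markers summed to 26.1, 44.6 and 41.0 CPM against 27.7, 18.6 and 24.8 CPM. Within the MS13 mice the fibro-adipogenic and adipocyte sums differed by -0.13 and -0.18 on the log2 scale. In both lists, as in Fst, the MS15 mice were the highest, and none of the markers was at 0. Their part in the Fst difference was not tested.

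Fstl1 (chr16:37776873-37836514, plus strand) encodes a secreted follistatin-like glycoprotein that muscle and its connective tissue cells make. It was at 102, 121 and 113 CPM in Baf155WT mice and at 80.6, 81.3 and 124 CPM in Baf155ΔMF mice. The 2 MS13 Baf155ΔMF mice were the lowest of the 6, whereas the MS14 Baf155ΔMF mouse was the highest. Its log2 difference was -0.23 (95% interval -0.57 to 0.11, adjusted p = 0.679 by edgeR) over all mice and -0.33 within the MS13 mice, which makes Fstl1 the member with the largest MS13 value in size.

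The receptor-activated SMADs, which carry the signal to the nucleus, were even across mice. Smad2 was at 29.6, 26.7 and 26.8 CPM in Baf155WT mice and at 31.8, 32.3 and 29.8 CPM in Baf155ΔMF mice. The genotypes of Smad2 did not overlap, but the lowest Baf155ΔMF mouse and the highest Baf155WT mouse nearly met, and the log2 difference of 0.18 (95% interval -0.04 to 0.39, adjusted p = 0.633 by edgeR) was 0.11 within the MS13 mice. Smad3 was at 105, 106 and 117 CPM against 124, 112 and 112 CPM, with overlapping genotypes and a log2 difference of 0.09 (SE 0.09, adjusted p = 0.788 by edgeR).

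Smad7, the inhibitory SMAD that is itself induced by the pathway, was at 8.65, 11.1 and 14.0 CPM in Baf155WT mice and at 8.22, 9.55 and 11.1 CPM in Baf155ΔMF mice. The MS13 mouse was again the lowest of the Baf155WT mice, and the genotypes overlapped. The log2 difference of Smad7 was -0.23 (95% interval -0.64 to 0.18, adjusted p = 0.718 by edgeR) over all mice and 0.04 within the MS13 mice.

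Compared per length, the members covered a wide range of levels. Myostatin led in Baf155WT mice at 43.0 ± 1.87 CPM per kb of longest transcript (SD, n = 3), followed by Fstl1 at 29.5 ± 2.62, Smad3 at 21.5 ± 1.36 and Acvr2a at 16.6 ± 0.25. These 4 were apart from each other in every Baf155WT mouse. Acvr2b at 11.4 ± 2.49 and Tgfbr2 at 10.5 ± 2.01 CPM per kb overlapped, as did Fst at 3.81 ± 1.34 and Smad2 at 3.42 ± 0.207. Smad7 at 2.63 ± 0.628 lay just below the lowest Smad2 value, and Tgfb1 was last at 1.16 ± 0.337 CPM per kb. In Baf155ΔMF mice the order of the means was the same except that Fst (2.37 ± 0.359) stood below Smad2 (3.87 ± 0.162). Single Baf155ΔMF mice departed from it. Smad3 was above Fstl1 in mice 1 (24.4 against 21.3) and 2 (22.0 against 21.5), but not in mouse 3 (22.1 against 32.7). Acvr2b was above Acvr2a in mouse 1 alone (19.2 against 18.8). When all exons of a gene were joined in place of its longest transcript, Tgfbr2 moved to rank 5 and Acvr2b to rank 6, and Smad2, Smad7 and Fst took ranks 7, 8 and 9.

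**Figure D2:**
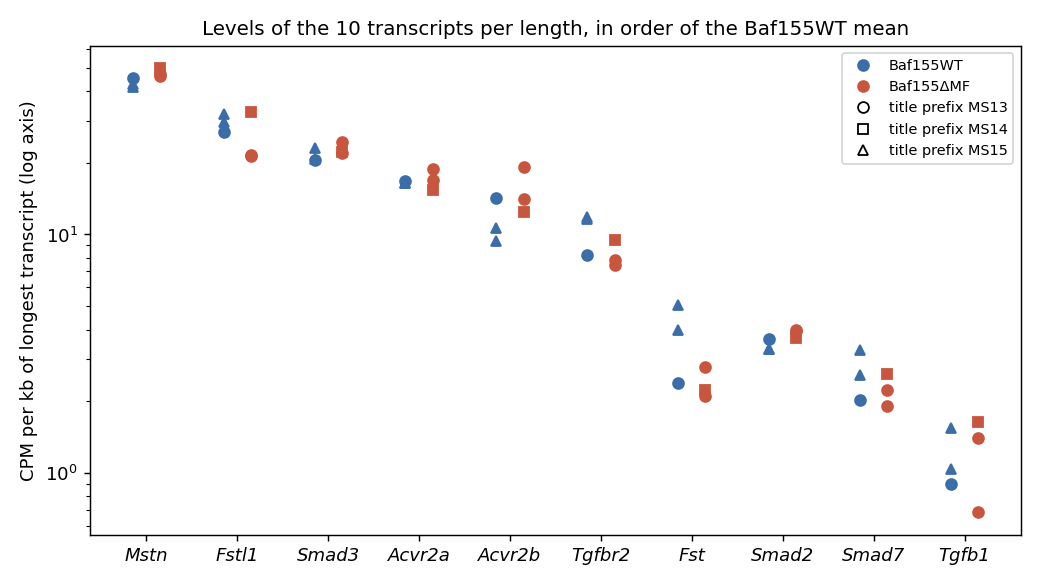
CPM per kb of the longest annotated transcript (log axis) of the 10 members, ordered by their Baf155WT mean, with each point 1 mouse, color for genotype and shape for title prefix. Mstn is the highest at a mean of 43.0 and Tgfb1 the lowest at 1.16 CPM per kb in Baf155WT mice.

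Ratios of 2 members within a mouse do not depend on library scaling and set a ligand against its inhibitor or a receptor against its partner. The log2 ratio of Mstn over Fst counts was 4.11, 2.92 and 3.31 in Baf155WT mice and 3.96, 4.34 and 4.35 in Baf155ΔMF mice. The MS15 mice were the lowest, and the MS13 Baf155WT mouse was above Baf155ΔMF mouse 1. The mean ratios were 3.44 ± 0.61 and 4.21 ± 0.22 (SD, n = 3 each), a difference of 0.77 with an exact permutation p of 0.2, where 0.1 is the smallest two-sided p that 3 against 3 mice allow. Within the MS13 mice the difference was 0.04.

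The other ratios also overlapped between genotypes. Acvr2b over Acvr2a was -1.09, -1.47 and -1.65 in Baf155WT mice and -0.81, -1.10 and -1.15 in Baf155ΔMF mice, a difference of 0.38 (exact permutation p = 0.3). Smad7 over Smad3, the inhibitor against the effector, differed by -0.29 (exact permutation p = 0.3), Smad2 over Smad3 by 0.09 (exact permutation p = 0.4) and Tgfb1 over Tgfbr2 by 0.39 (exact permutation p = 0.3). None of the 5 ratios could have passed a limit of 0.05 in this design.

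**Figure D3:**
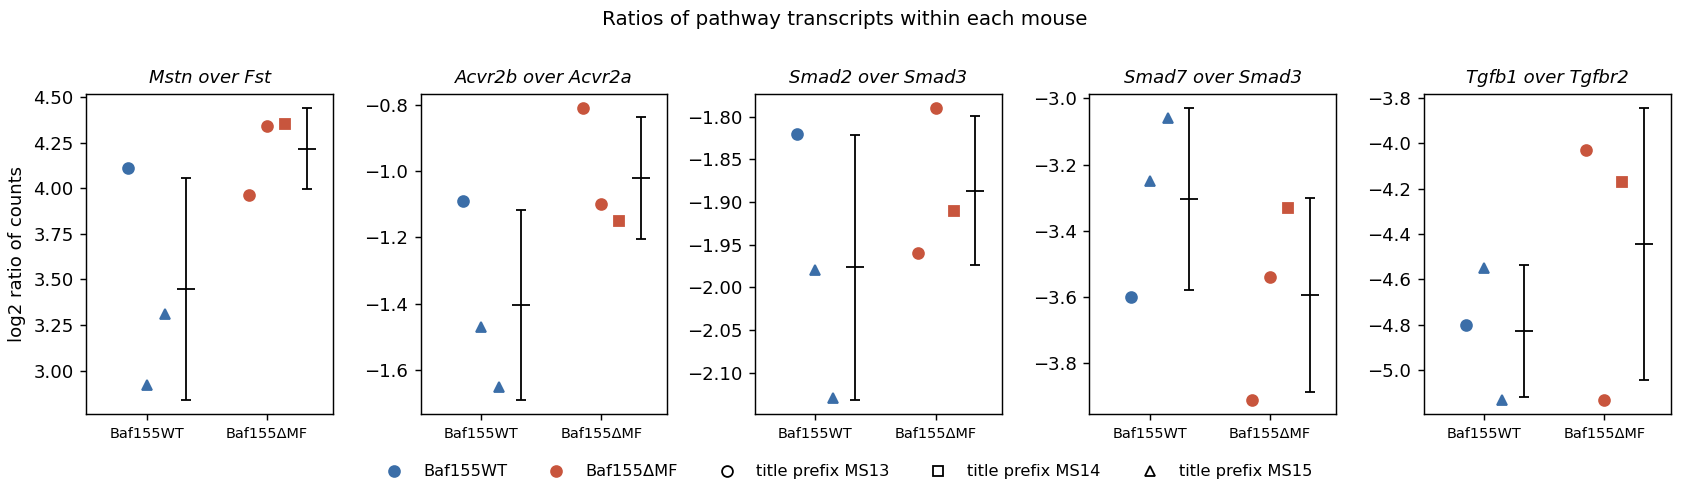
Log2 ratio of the counts of 2 members within each mouse (y axes in log2 units, each with its own range) for 5 pairs. Points are mice, colored by genotype and shaped by title prefix, with mean ± SD in black; the genotypes overlap in all 5, and for Mstn over Fst the 2 MS15 mice at 2.92 and 3.31 lie below the other 4.

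The rest of the pathway was read from lists of 84 genes by role, of which 71 were tested. By edgeR 0 of the 71 had an adjusted p under 0.05, and DESeq2 called 1, Thbs1 (adjusted p = 0.0217). At an unadjusted p under 0.05 there were 1 higher and 6 lower genes of the 71, beside 3.35% and 4.6% of all genes. The genotypes did not overlap in 1 higher and 3 lower genes, beside 5.2% and 5.57% of all genes. The median log2 difference over the 71 was -0.01, beside 0.00 over all genes. Without Baf155WT mouse 1 the adjusted limit was passed by 10 of these genes, beside 7.77% of all genes (955 of 12288). Among the 10 were Gdf11, Bmpr2, Dcn, Fmod, Thbs1, Itgav, Tgfbi, Fn1 and Fbxo30. Both Baf155WT mice in that fit were MS15, so genotype and title prefix cannot be told apart in it.

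Of the 4 other ligands tested, Gdf11, the closest relative of myostatin, was at 8.16, 18 and 14.0 CPM in Baf155WT mice and at 9.50, 7.79 and 6.67 CPM in Baf155ΔMF mice. As for Fst, only the 2 MS15 mice were above the rest. The log2 difference of Gdf11 was -0.75 (SE 0.25, adjusted p = 0.601 by edgeR) over all mice and 0.08 within the MS13 mice. The TGF-beta ligands Tgfb2 (log2 difference 0.15) and Tgfb3 (-0.07) and the activin B subunit Inhbb (-0.52) passed neither limit, and the activin A subunit Inhba was too scarce to test, at 4 to 13 counts per mouse.

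Among 10 further receptors none had an unadjusted p under 0.05, beside 7.95% of all genes. The type I receptors that pair with the members, Acvr1b (activin and myostatin) and Tgfbr1 (TGF-beta), had log2 differences of -0.10 and 0.03. Acvr1c, a type I receptor of nodal and activin B, was the only one whose genotypes did not overlap, beside 10.8% of all genes (5.57% lower). It was at 1.94, 3.83 and 2.23 CPM against 1.92, 1.77 and 1.29 CPM. The nearest mice, Baf155WT mouse 1 and Baf155ΔMF mouse 1, had 20 and 18 counts. Acvr1c was named after its values were seen. Its log2 difference was -0.70 over all mice and -0.08 within the MS13 mice.

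Of 9 extracellular inhibitors tested, 3 were lower at the unadjusted limit (beside 4.6% of all genes), Dcn and Fmod among them. Dcn and Fmod encode decorin and fibromodulin, matrix proteoglycans that bind TGF-beta. Dcn was at 744, 1160 and 1010 CPM against 654, 678 and 836 CPM (log2 -0.43, MS13 mice -0.16), and Fmod at 98.5, 137 and 133 CPM against 90.4, 69.9 and 119 CPM (log2 -0.40, MS13 mice -0.30). Both overlapped between genotypes, with the MS15 mice highest, as in the fibro-adipogenic marker sum. The follistatin relative Fstl3, at 0.777 to 2.46 CPM, had a log2 difference of 0.70 (SE 0.39), and the myostatin-binding Wfikkn2 one of -0.01 (SE 0.16).

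Of 11 genes of ligand processing and latency tested, Thbs1 was the only one at the unadjusted limit, beside 7.95% of all genes. Its product, thrombospondin, can release TGF-beta from its latent complex. Thbs1 was at 45.4, 64.9 and 52.9 CPM in Baf155WT mice and at 28.1, 38.7 and 35.5 CPM in Baf155ΔMF mice. Every Baf155ΔMF mouse was below every Baf155WT mouse, with a log2 difference of -0.68 (SE 0.15, adjusted p = 0.404 by edgeR) over all mice and -0.44 within the MS13 mice.

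The 4 other SMADs tested included the shared partner Smad4 (log2 0.03) and the inhibitory Smad6 (log2 -0.24). Neither they nor 12 SMAD corepressors, ubiquitin ligases and other brakes held a gene at the unadjusted limit, beside 7.95% of all genes. In that second list Bambi, a receptor decoy named here after its values were seen, was the only one without overlap, beside 10.8% of all genes (5.2% higher). Bambi was at 1.36, 1.38 and 1.16 CPM against 1.60, 1.77 and 2.22 CPM (log2 0.51, adjusted p = 0.635 by edgeR). These were only 13 to 19 counts per mouse.

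Among 12 TGF-beta target genes tested, 1 was higher and 1 lower at the unadjusted limit, beside 3.35% and 4.6% of all genes. Tgfbi, the lower one, which encodes a matrix protein named for its induction by TGF-beta, was at 40.5, 67.9 and 60.5 CPM in Baf155WT mice and at 31.8, 37.7 and 45.3 CPM in Baf155ΔMF mice. Its genotypes overlapped and its log2 difference was -0.56 (SE 0.18, adjusted p = 0.601 by edgeR), or -0.22 within the MS13 mice. The 12 targets had a median log2 difference of -0.17, and the fibrillar collagens Col1a1 (0.36), Col1a2 (0.16) and Col3a1 (0.31) were not at the unadjusted limit.

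**Figure D4:**
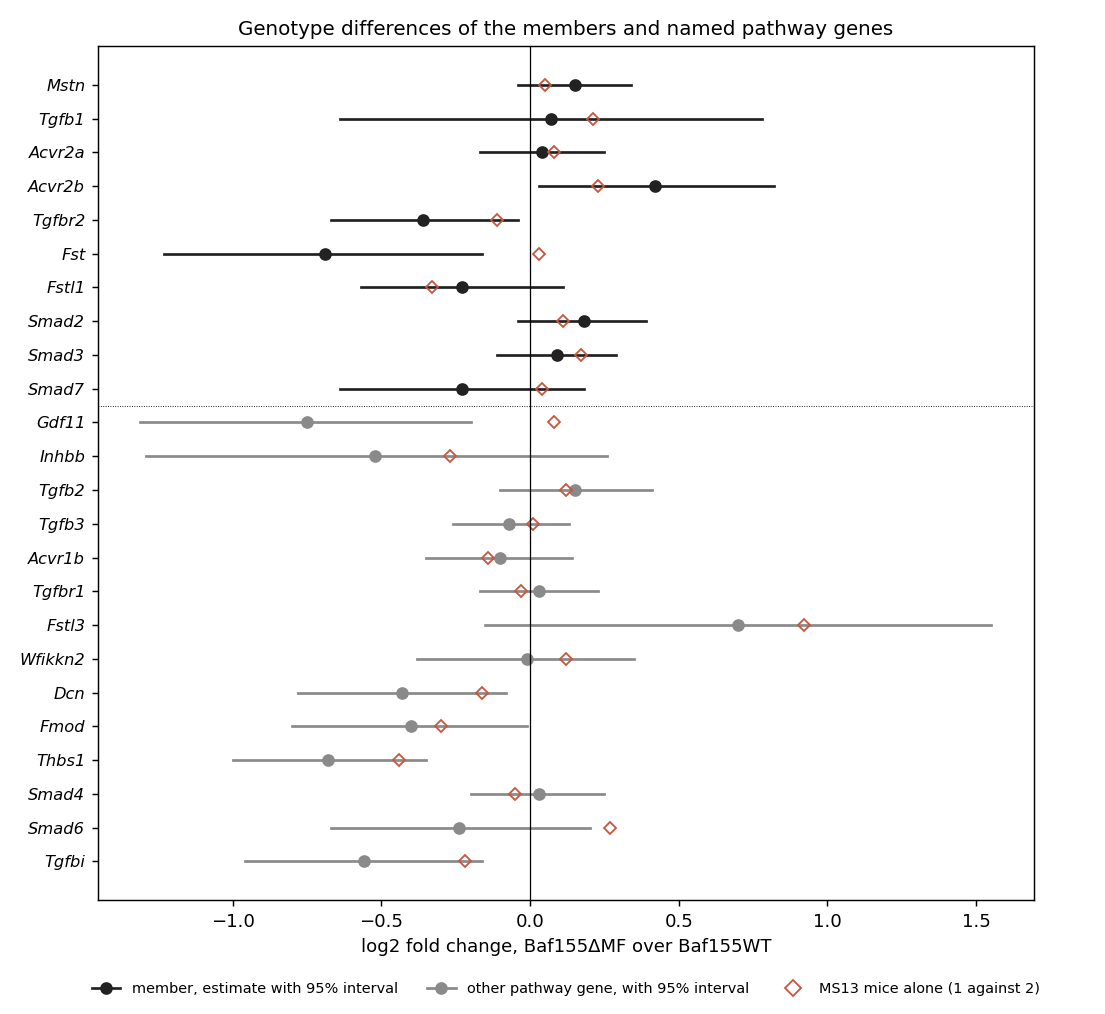
Log2 fold change of Baf155ΔMF over Baf155WT (x axis) with its 95% interval from edgeR for the 10 members (black, above the dotted line) and the named pathway genes (grey), with the MS13 mice alone (1 against 2) as open red diamonds. For Fst and Gdf11 the estimates of -0.69 and -0.75 stand beside MS13 values of 0.03 and 0.08, while Thbs1 stays below 0 in both, at -0.68 and -0.44.

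**Figure D5:**
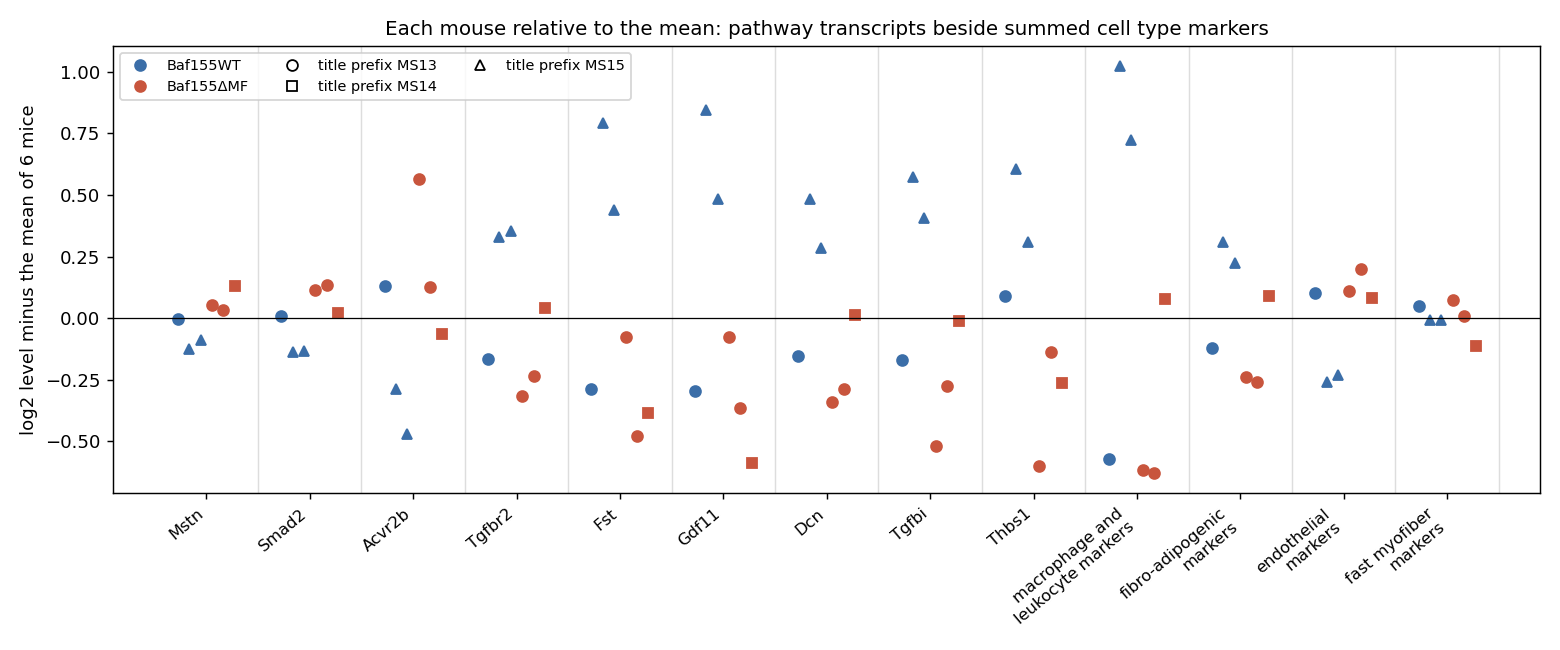
Log2 level of each mouse minus the mean of the 6 mice (y axis) for pathway transcripts and for summed cell type markers, with color for genotype and shape for title prefix. The 2 MS15 Baf155WT mice (triangles) stand highest in Fst, Gdf11, Tgfbr2, Dcn, Tgfbi and the leukocyte and fibro-adipogenic sums and lowest in Acvr2b, and the MS13 Baf155WT mouse lies with the Baf155ΔMF mice in most of these.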

How the data were processed

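Total RNA libraries (TruSeq Stranded Total RNA) of 6 hind limb muscle samples were sequenced by the authors on a HiSeq instrument. The authors deposited 1 table of values per gene symbol, taken here to be expected counts without normalization because some values are not whole and RSEM is named. Their processing notes name CASAVA 1.8.2, cutadapt 1.10, Bowtie2 2.2.7, TopHat2 2.1.1, RSEM 1.2.30 and limma, and the builds mm10 and GRCm38. Expected counts share reads between overlapping or similar genes by estimate. The annotation used is not given in the sources used here.

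Counts were rounded and fitted in R 4.3.3 with edgeR 4.0.16 (filterByExpr, minimum count 10 and total 15, TMM scaling, quasi-likelihood F test of genotype, no covariate, Benjamini-Hochberg adjustment over 12116 genes), which was tested on simulated data. Alternatives used DESeq2 1.42.0 and limma 3.58.1. Ratios used a pseudocount of 0.5 and a two-sided exact permutation test. Gene positions and lengths came from GENCODE M21, promoter sequences from RefSeq. Members, lists and tests were chosen with earlier results of these data known. Named pathway genes were a fixed set of 11 (Gdf11, Inhba, Inhbb, Tgfb2, Tgfb3, Acvr1b, Tgfbr1, Fstl3, Wfikkn2, Smad4, Smad6) and up to 3 per list and direction at an unadjusted p under 0.05. Replicates are separate mice, and no 2 libraries of 1 genotype agreed within sampling noise. Some genes that the rule names are not reported here.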

Additional observations from a re-analysis of the deposited data

How the results depend on the processing

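With 3 mice per genotype and the title prefix partly aligned with genotype, the limits below apply to every difference given. When title prefix enters the model, genotype is compared within the MS13 mice alone, 1 Baf155WT against 2 Baf155ΔMF mice. Results of that fit therefore rest on 1 Baf155WT library and repeat the MS13 differences given above. Genes with an adjusted p under 0.05 numbered 3 by edgeR, 17 without a filter on low counts, 22 by DESeq2, 5 by limma-voom, 16 when title prefix entered the model and 0 to 955 when 1 mouse was left out. Members at the adjusted limit numbered 0 to 3 when 1 mouse was left out, beside 0% to 7.77% of all genes. Other pathway genes numbered 0 to 10 in those fits, and 1 by DESeq2 (beside 0.182% of all genes). Members at the unadjusted limit numbered 3, but 1 (Fstl1, beside 5.08% of all genes) with the prefix as a covariate and 0 to 6 (beside 3.69% to 23.8% of all genes) when 1 mouse was left out. A robust edgeR fit gave 2 members at the unadjusted limit, Tgfbr2 and Fst (beside 7.24% of all genes). Members without overlap numbered 2 (beside 10.8% of all genes), but 1 (Smad2, beside 11%) with library size alone. They numbered 2 to 5 when 1 mouse was left out, beside 16.2% to 39.2% of all genes. With library size alone the signs of Acvr2a (-0.03), Tgfbr1 (-0.03) and Smad4 (-0.04) turned. With the prefix as a covariate those of Fst (0.02), Smad7 (0.04), Gdf11 (0.08), Tgfb3 (0.01), Tgfbr1 (-0.03), Wfikkn2 (0.12), Smad4 (-0.05) and Smad6 (0.27) turned. By limma-voom Tgfb1 (0.00) and Wfikkn2 (0.01) turned. With the trend over transcript length removed, an alternative chosen after seeing the data (median log2 difference -0.073 in the shortest and 0.078 in the longest of 3 equal bins of genes), Acvr2a (-0.03) and Tgfbr1 (-0.04) turned. Smad2 then had 0.06 in place of 0.18, Mstn 0.18 in place of 0.15 and Tgfbr2 -0.48 in place of -0.36. With that trend removed 4 members, Mstn among them, were at the unadjusted limit, beside 7.88% of all genes. Leaving out 1 mouse gave -0.17 to 0.37 for Tgfb1, -0.04 to 0.11 for Acvr2a, -0.16 to 0.00 for Acvr1b, -0.02 to 0.08 for Tgfbr1, -0.14 to 0.17 for Wfikkn2 and -0.05 to 0.10 for Smad4. The cause of these shifts was not tested. No paired analysis was possible because no sample name recurs across genotypes and the replicate numbers, given in accession order, mark no shared animal, litter or day. Depth limits the scarce transcripts most, Tgfb1 among the members.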

Other observations

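The BMP arm shares type II receptors and Smad4 with the myostatin and activin arm and acts through other SMADs. Of 11 genes listed for it 9 were tested, with a median log2 difference of 0.00. By edgeR 0 had an adjusted p under 0.05 (beside 0.0248% of all genes) and 0 an unadjusted one (beside 7.95%). The BMP receptors and SMADs were counted in the receptor and SMAD lists. Bmp2, a BMP ligand, was at 3.30, 4.44 and 4.02 CPM in Baf155WT mice and at 3.52, 2.49 and 2.22 CPM in Baf155ΔMF mice (log2 -0.51, adjusted p = 0.622 by edgeR). Fbxo30, a ubiquitin ligase of muscle atrophy that BMP signaling represses, was at 41.1, 28.5 and 25.3 CPM against 41.0, 42.1 and 32.0 CPM (log2 0.29, adjusted p = 0.657 by edgeR). In both genes the genotypes overlapped, and both were named after their values were seen. Id1, Id2 and Id3, direct BMP targets, had log2 differences of -0.11, -0.42 and -0.06.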
